A study of Mus musculus with 6 samples.

Results

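SOX proteins are transcription factors that bind DNA through an HMG box, a domain of related sequence in every family member. Members with the closest HMG boxes form groups (SOXB1, SOXC, SOXD, SOXE, SOXF). As background, Sox2 of the SOXB1 group marks stem and progenitor cells of the dental epithelium. Sox9 of the SOXE group, with Sox5 and Sox6 of the SOXD group as partners, drives cartilage differentiation and is also made in tooth mesenchyme. Sox10, another SOXE gene, marks neural crest cells and their glial descendants, Sox4 and Sox11 of the SOXC group act in immature mesenchyme and neurons, and Sox18 of the SOXF group is an endothelial factor. The 10 SOX genes described here, Sox2, Sox4, Sox5, Sox6, Sox8, Sox9, Sox10, Sox11, Sox12 and Sox18, were chosen by symbol from a table of 25899 symbols, and all 10 were found. Of the 10, 9 had a mean of at least 1 RPM (reads per 1000000 mapped reads) and were tested with 14444 genes in all; Sox8 was below that level.

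The RNA came from apical dental mesenchyme of mandibular first molars, taken from mice on postnatal day 7.5. The series asked how signalling through the BMP receptor BMPR1A acts on tooth mesenchyme. The 3 mutant libraries came from Gli1-CreER;Bmpr1afl/fl mice, in which a tamoxifen-dependent Cre recombinase made in Gli1-expressing cells can delete the floxed Bmpr1a alleles. The 3 control libraries came from Bmpr1afl/fl littermates, so both groups carry floxed alleles, on a mixed C57Bl6/129S6/SvEvTac background. Controls 1 and 2 were littermates of mutants 1 and 2 (litter 1), and control 3 was a littermate of mutant 3 (litter 2). Neither the tamoxifen schedule nor its use in controls is given in the labels, and cells outside the Gli1-expressing lineage keep the receptor. The labels do not say whether each library came from 1 animal, so p-values measure the spread between these libraries.

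Libraries held 15916045 to 20609420 reads on genes. Bmpr1a was at 121, 139 and 149.5 RPM in controls 1 to 3 and at 108, 120.2 and 111 RPM in mutants 1 to 3, a log2 change of -0.27 (SE 0.14, unadjusted p 0.091 by limma, adjusted p 1.00). Gli1, the gene that marks the targeted cells, was at 34.9, 30.4 and 63.7 RPM in controls and at 28.7, 19.8 and 26.6 RPM in mutants with no overlap (log2 change -0.70, SE 0.29, unadjusted p 0.046, adjusted p 1.00). Markers of dental mesenchyme were present (10 of 10 listed genes above 1 RPM), as were those of odontoblasts (6 of 6). Enamel epithelium was present too: the summed level of its 12 listed genes ran from 2351 to 39418 RPM in controls and from 5428 to 49846 RPM in mutants. Skeletal muscle markers were all below 1 RPM (5 of 5).

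The family members are close enough in sequence that reads from their HMG boxes could be exchanged, so the first 60 bases of the conserved box are shown for the 3 groups that have more than 1 member here. Sequences are from GENCODE vM21 coding transcripts on mm10, 5′ to 3′ on the coding strand, and capitals mark bases that differ from Sox9 at the same place in the window.
Sox9 (chr11:112782903-112782962, plus strand): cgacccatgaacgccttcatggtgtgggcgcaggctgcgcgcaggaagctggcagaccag
Sox8 (chr17:25570163-25570222, minus strand): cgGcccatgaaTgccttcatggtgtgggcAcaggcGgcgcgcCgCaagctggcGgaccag
Sox10 (chr15:79163342-79163401, minus strand): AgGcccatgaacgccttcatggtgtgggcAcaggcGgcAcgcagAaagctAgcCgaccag
Sox4 (chr13:28952782-28952841, minus strand): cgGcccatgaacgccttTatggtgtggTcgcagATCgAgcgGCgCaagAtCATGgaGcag
Sox11 (chr12:27342199-27342258, minus strand): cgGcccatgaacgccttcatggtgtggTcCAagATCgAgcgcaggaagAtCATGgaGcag
Sox12 (chr2:152397516-152397575, minus strand): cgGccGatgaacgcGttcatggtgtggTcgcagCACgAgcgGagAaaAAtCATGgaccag
Sox5 (chr6:143841214-143841273, minus strand): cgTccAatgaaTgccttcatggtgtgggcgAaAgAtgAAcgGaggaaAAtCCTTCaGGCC
Sox6 (chr7:115489703-115489762, minus strand): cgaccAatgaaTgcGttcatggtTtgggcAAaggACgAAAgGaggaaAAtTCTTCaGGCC

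Sox8 and Sox10 differed from Sox9 at 7 and 8 of the 60 bases, the SOXC genes at 14 to 16, and Sox5 and Sox6 at 20 and 23. Over 216 bases of the box, pairs within a group were 81.9% to 90.3% identical (7 pairs), and pairs of different groups 52.8% to 75.9% (38 pairs). The longest exact run of coding sequence shared by any pair was 48 bases, between Sox4 and Sox11, followed by 44 bases between Sox9 and Sox10. Reads lying wholly in such runs cannot be assigned to 1 gene, and the read length is not given in the sources used here. Exons of Sox4, Sox5 and Sox8 overlap a gene on the other strand in GENCODE vM21, and the counting is not stated to use strand, so their values may include reads of that neighbour.

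Levels were compared between genes per kilobase of exon (RPM per kb, exons of all GENCODE vM21 transcripts merged). Sox4 was the highest at 54.4 ± 13.2 RPM per kb (mean ± SD over the 6 libraries), above Sox9 in 6 of 6 libraries with no overlap of the ranges. Sox9 at 22.7 ± 3.87, Sox12 at 21.8 ± 3.84 and Sox18 at 18.2 ± 2.77 RPM per kb followed with overlapping ranges. Sox2 at 2.33 ± 1.77, Sox10 at 2.17 ± 0.980 and Sox11 at 1.13 ± 0.585 RPM per kb were lower, and all 6 libraries had more Sox18 than Sox2 per kb, without overlap. Sox5 at 0.528 ± 0.241, Sox6 at 0.492 ± 0.179 and Sox8 at 0.199 ± 0.0744 RPM per kb were the lowest. Among the lower 6 genes each range overlapped that of the next, and Sox2 exceeded Sox10 in 3 of 6 libraries. The merged exons of Sox5 and Sox6 span 14376 and 14832 bases. With the length of the transcript that has the longest coding sequence, Sox6 stood at 2.51 RPM per kb, above Sox2, so the place of Sox6 depends on the transcript counted.

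**Figure D1:**
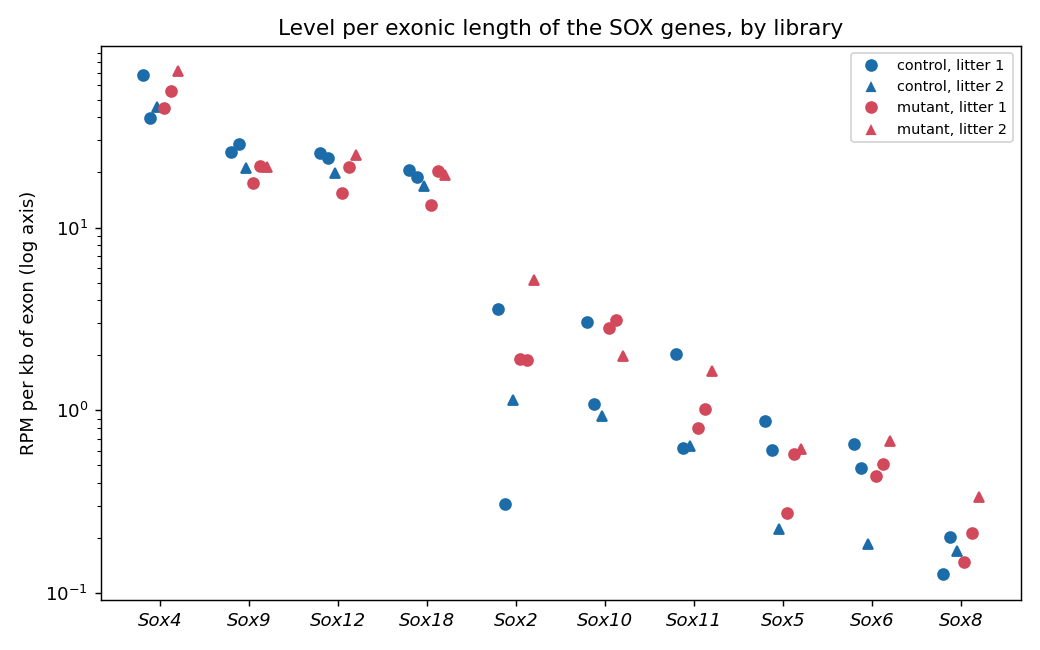
Level of each SOX gene per kilobase of merged exon (y axis, RPM per kb, log axis) in the 6 libraries; colour gives genotype and shape gives litter. Sox4, Sox9, Sox12 and Sox18 lie above 13 RPM per kb in every library and the other 6 genes below 5.2.

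No SOX gene differed between mutants and controls beyond the spread between libraries. By limma with Benjamini-Hochberg adjustment, 0 of 9 tested SOX genes had an adjusted p under 0.05, where 0% of all tested genes did, and 0 of 9 had an unadjusted p under 0.05, against 1.05% of all tested genes. With limma voom on recovered reads the members' counts were also 0 and 0. The mutant and control ranges overlapped for 9 of 9 genes, and 2.64% of all tested genes had groups that did not overlap. The median log2 change was 0.18 over the 9 genes and -0.01 over all tested genes; 4 of 9 were below 0, as were 54.4% of all tested genes. The adjusted p was 1.00 for each of the 9. The 95% intervals still allow large differences: the narrowest, that of Sox9, ran from -0.69 to 0.07 and the widest, that of Sox2, from -0.59 to 2.33 on the log2(RPM + 1) scale.

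**Figure D2:**
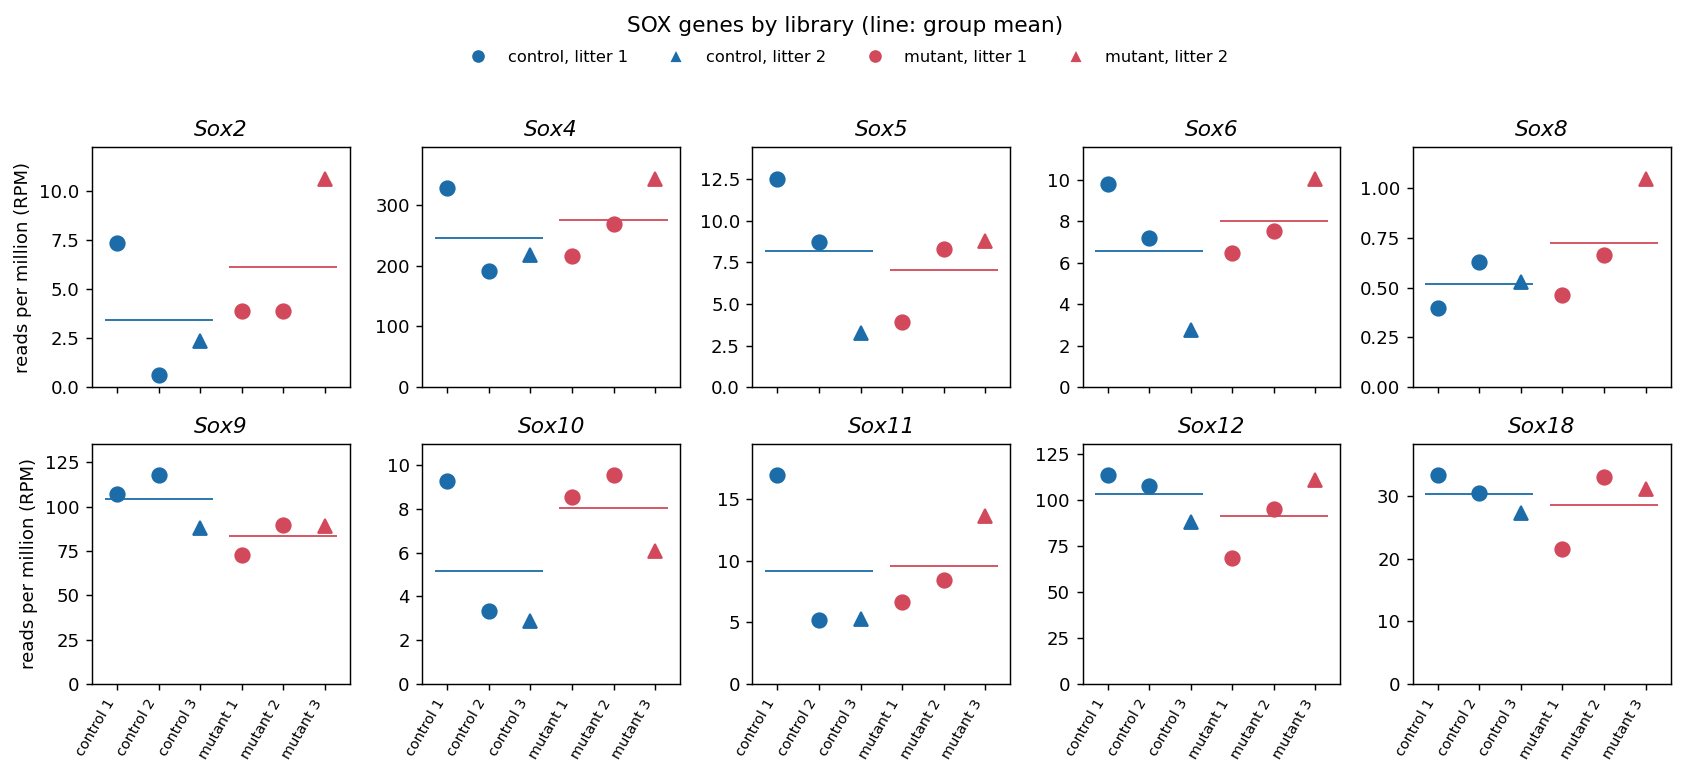
RPM of each SOX gene (y axis, starting at 0, 1 panel per gene) in the 6 libraries, with the group mean as a line; shape gives litter. Control and mutant points overlap in all 10 panels.

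SOXE genes. Sox9 (chr11:112782224-112787760, plus strand, mm10) is the cartilage master factor. It was at 107, 118 and 87.7 RPM in controls 1 to 3 and at 72.4, 89.4 and 89.0 RPM in mutants 1 to 3. Controls 1 and 2 lay above all mutants, while control 3 lay between mutant 1 and the other two. The mean was 104.2 ± 15.2 RPM in controls and at 83.6 ± 9.70 RPM in mutants (SD, n = 3 per group here and below), a log2 change of -0.31 (SE 0.16, 95% interval -0.69 to 0.07, unadjusted p 0.0969 by limma). This was the smallest p among the 9 genes. It was under 0.05 in 3 of 18 alternatives: 0.0391 with median-of-ratios scaling, 0.0317 in litter 1 alone and 0.0329 without control 3, with an adjusted p of 1.00 in all 18. The change kept its direction in 18 of 18, from -0.47 to -0.21.

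Cartilage genes that SOX9, SOX5 and SOX6 are known to activate were set beside it. Of 14 listed, 10 were tested, 0 had an unadjusted p under 0.05, and 10 of 10 had a lower mean log2 level in mutants, with a median log2 change of -0.38; 54.4% of all tested genes were lower. Other lists were lower too: 6 of 6 osteoblast markers (median -0.95), 6 of 6 odontoblast markers (-0.63) and 8 of 10 dental mesenchyme markers (-0.27). Col2a1, the collagen of cartilage, was at 31.8, 19.3 and 15.0 RPM in controls and at 8.49, 6.02 and 23.5 RPM in mutants, and Col9a1 at 21.4, 38.2 and 19.8 and at 10.7, 9.88 and 29.6 RPM. In both genes mutants 1 and 2 were lowest and mutant 3 lay inside the control range. Others of the list had another order: Col11a1 and Col11a2, given for that reason after their values were seen, were highest in mutant 1 (542 and 1215 RPM) and lowest in mutant 3 (169.9 and 97.6 RPM). Mutant 1 was the lowest library for 2 and the highest for 2 of the 10 genes. The summed level of the 7 cartilage markers, a list that shares genes with these targets, was 107 to 184 RPM in controls and 71.9 to 189 RPM in mutants; Matn1 and Comp, both of the cartilage matrix, were under 1 RPM. The part of cartilage cells in the Sox9 values was not tested. In these bulk libraries fewer cells of a type and less RNA per cell cannot be told apart.

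Sox10 (chr15:79154908-79165240, minus strand) was at 9.28, 3.32 and 2.86 RPM in controls and at 8.56, 9.55 and 6.08 RPM in mutants. Controls 2 and 3 lay below every mutant, and control 1 lay among the mutants. Reads per library were 81 to 287, and the 95% Poisson interval of control 2, 2.69 to 4.06 RPM, did not reach that of mutant 3, 5.13 to 7.15 RPM; such intervals cover counting error only. The log2 change was 0.69 (SE 0.39, interval -0.23 to 1.60, unadjusted p 0.121 by limma). Without control 1 it was 1.13 (unadjusted p 0.00415, adjusted p 1.00 there and in every alternative), and the 18 alternatives placed it between 0.42 and 1.13.

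Glial markers were in another order than Sox10. The summed level of the 8 listed glial genes was 39.5, 50.6 and 32.6 RPM in controls and 35.1, 29.5 and 46.4 RPM in mutants, highest in control 2, where Sox10 was second lowest. S100b, a calcium-binding protein gene of glia that cartilage cells also express, had a log2 change of -0.54 (unadjusted p 0.0306, adjusted p 1.00 by limma). Melanocyte markers, another Sox10-positive lineage, summed to 10.4 to 17.3 RPM in controls and 10.8 to 12.8 RPM in mutants; Tyr and Mlana were at 3 reads or fewer in at least 1 library.

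The gene with the pattern most like Sox10 over the 6 libraries was Dkk2, which encodes a secreted modulator of Wnt signalling. Likeness was measured as the root mean square (RMS) difference of centred log2(RPM + 1), which was 0.042 for Dkk2. Dkk2 was at 55.2, 22.9 and 20.5 RPM in controls and at 55.6, 60.3 and 39.8 RPM in mutants. It was picked from 14444 tested genes for this likeness, so its low values in controls 2 and 3 are not a separate result. Gm11428 and Adcy7 followed, at 0.21 and 0.23.

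Sox8 (chr17:25565892-25570686, minus strand), the remaining SOXE gene, was near the limit of detection. It had 12, 18 and 15 reads in controls and 13, 20 and 25 in mutants, or 0.395, 0.630 and 0.530 RPM and 0.462, 0.665 and 1.05 RPM. Mutant 3 was highest, and its 95% Poisson interval of 0.678 to 1.55 RPM overlapped that of control 2, 0.373 to 0.995 RPM. The difference in log2(RPM + 1) was 0.17, with an exact two-sided permutation p of 0.4, where 3 against 3 libraries cannot go below 0.1.

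SOXD genes. Sox5 (chr6:143828425-144781977, minus strand) and Sox6 (chr7:115470872-116038796, minus strand) encode factors without a transactivation domain that act with SOX9. Sox5 was at 12.5, 8.71 and 3.25 RPM in controls and at 3.94, 8.32 and 8.80 RPM in mutants. Control 3 and mutant 1 were the low libraries, so each group had 1 library well below its others. The log2 change was -0.10 (SE 0.47, interval -1.20 to 0.99, unadjusted p 0.832 by limma). Its sign turned when control 1 (0.26), control 2 (0.02) or mutant 1 (0.21) was left out.

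Sox6 was at 9.77, 7.17 and 2.75 RPM in controls and at 6.47, 7.52 and 10.1 RPM in mutants. Control 3 was the lowest here too, while the other 5 libraries lay between 6.47 and 10.1 RPM. The log2 change was 0.36 (SE 0.39, interval -0.56 to 1.29, unadjusted p 0.385), and -0.08 without control 3.

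The SOXD genes share the 2 lowest libraries, control 3 and mutant 1, in the same order. Sox9, Sox12 and Sox18 had the same 2 lowest libraries, in the opposite order. Of all tested genes, 52.0% had control 3 and 55.4% had mutant 1 among their 2 lowest libraries. The genes most like Sox5 were Hoxd8, Cbfa2t3 and Mecom, each with an RMS difference of 0.11. Those most like Sox6 were Steap4, Abtb2 and Pde3a, with RMS differences of 0.14, 0.15 and 0.15. All were picked for this likeness, so that they were lowest in control 3 is not a separate result. Neither gene was the other's nearest.

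SOXC genes. Sox4 (chr13:28948919-28953713, minus strand), a single-exon gene and the most abundant SOX transcript, was at 327, 191 and 218 RPM in controls and at 216, 268 and 344 RPM in mutants. Control 1 and mutant 3 were high and the groups overlapped widely. The means were 246 ± 72.2 and 276 ± 64.3 RPM, a log2 change of 0.18 (SE 0.26, interval -0.44 to 0.80, unadjusted p 0.515). It was 0.41 without control 1, 0.34 without mutant 1, 0.018 without control 2, 0.11 without control 3 and 0.0083 without mutant 3.

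Sox11 (chr12:27334264-27342574, minus strand) was at 16.9, 5.18 and 5.30 RPM in controls and at 6.64, 8.42 and 13.6 RPM in mutants. Control 1 and mutant 3 were again the 2 highest, and controls 2 and 3 the 2 lowest. The log2 change was 0.20 (SE 0.46, interval -0.88 to 1.27, unadjusted p 0.678), and its sign turned without control 2 (-0.06), control 3 (-0.05) or mutant 3 (-0.06). Genes most like Sox11 were Amica1, Nrg3 and Kcna1, with RMS differences of 0.14, 0.15 and 0.15.

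Sox12 (chr2:152393611-152398063, minus strand) was at 113, 107 and 88.1 RPM in controls and at 68.5, 94.98 and 111 RPM in mutants. Mutant 1 was lowest and the other 5 libraries lay within 88.1 to 113 RPM. The log2 change was -0.19 (SE 0.20, interval -0.67 to 0.29, unadjusted p 0.388), and 0.0042 without mutant 1. Of 10 listed targets and partners of SOXC factors, 9 were tested and 1, Dcx of immature neurons, had an unadjusted p under 0.05 (log2 change 1.32, SE 0.46, unadjusted p 0.024, adjusted p 1.00). Of the 9, 4 had a higher and 5 a lower mean log2 level in mutants (median log2 change -0.03); among the lower were the neuronal genes Tubb3 (-0.81, unadjusted p 0.277) and Stmn2 (-0.60, unadjusted p 0.0619), the latter with groups that did not overlap, both named after their values were seen. Dcx was at 4.64, 0.944 and 2.08 RPM in controls and at 9.06, 3.83 and 9.76 RPM in mutants.

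SOXB1 gene. Sox2 (chr3:34650405-34652461, plus strand), which lies within the locus of the noncoding gene Sox2ot without sharing its exons, varied most. It was at 7.37, 0.630 and 2.33 RPM in controls and at 3.91, 3.86 and 10.6 RPM in mutants. Control 2 and mutant 3 stood 16.9-fold apart, on 18 and 254 reads, and control 1 lay above mutants 1 and 2. The means were 3.44 ± 3.51 and 6.14 ± 3.90 RPM, a log2 change of 0.87 (SE 0.62, interval -0.59 to 2.33, unadjusted p 0.202). Without control 1 the change was 1.49 (unadjusted p 0.0238, adjusted p 1.00 there and in every alternative), and 17 alternatives placed it between 0.31 and 1.49, above 0 in each.

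Many epithelial genes had the same extreme libraries as Sox2. In control 2, the library with least Sox2, 8 of the 12 listed epithelial markers were at their lowest; in mutant 3, with most Sox2, 5 of 12 were at their highest. Mutant 1, where Sox2 was at 3.91 RPM, was the highest library for 6 of 12. Of all tested genes, 14.4% were lowest in control 2, 23.8% highest in mutant 3 and 7.32% highest in mutant 1. The secretory enamel genes, the first of that list, were in another order: Amelx was at 2220.4, 876 and 19794 RPM in controls and at 23480.0, 2526 and 10097 RPM in mutants, highest in mutant 1 and control 3, where Sox2 was at 3.91 and 2.33 RPM. Ambn and Enam were also highest in those 2 libraries. Epcam and Krt5, singled out after their values were seen, code for an epithelial adhesion protein and a basal keratin. Epcam was at 32.2, 3.53 and 14.7 RPM in controls and at 34.5, 27.3 and 59.4 RPM in mutants, and Krt5 at 832, 95.4 and 1345 RPM and at 1267, 529.9 and 2076 RPM. Both were lowest in control 2 and highest in mutant 3, as Sox2 was. Across the list, 11 of 12 markers had a higher mean log2 level in mutants (median log2 change 1.09), with 0 of 12 under an unadjusted p of 0.05. The part of carried-over epithelium in the Sox2 values was not tested.

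The genes most like Sox2 over the 6 libraries were Synpo2, Krt79 and Plekha7, with RMS differences of 0.057, 0.18 and 0.20. Synpo2, an actin-binding protein gene, was at 12.0, 1.50 and 3.85 RPM in controls and at 6.54, 6.29 and 18.3 RPM in mutants; Krt79 is a keratin and Plekha7 a component of epithelial junctions. Of 11 listed SOX2 partners and dental epithelial regulators, 9 were tested and 0 had an unadjusted p under 0.05.

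SOXF gene. Sox18 (chr2:181669836-181671640, minus strand) was at 33.4, 30.6 and 27.3 RPM in controls and at 21.6, 33.2 and 31.3 RPM in mutants. Mutant 1 was low and the other 5 libraries lay within 27.3 to 33.4 RPM. The log2 change was -0.10 (SE 0.19, interval -0.55 to 0.35, unadjusted p 0.61), and 0.083 without mutant 1.

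Endothelial markers had the same low library, as did markers of dental mesenchyme and many other genes. Their summed level (9 genes) was 515, 439.8 and 388 RPM in controls and 336, 490.4 and 434 RPM in mutants, and 7 of 9 were at their lowest in mutant 1. Dental mesenchyme markers were lowest there for 7 of 10, and all tested genes for 34.0%. The first of the list, Pecam1, was at 75.1, 69.1 and 64.5 RPM in controls and at 49.9, 72.5 and 67.1 RPM in mutants. Of the 9 markers 0 had an unadjusted p under 0.05. Of 11 SOXF targets and partners tested, 1 did: Mef2c, a transcription factor gene of vessels and muscle, at 37.0, 50.2 and 53.9 RPM in controls and at 29.7, 40.4 and 31.8 RPM in mutants (log2 change -0.45, SE 0.19, unadjusted p 0.0492, adjusted p 1.00). The part of vessel content in the Sox18 values was not tested.

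**Figure D3:**
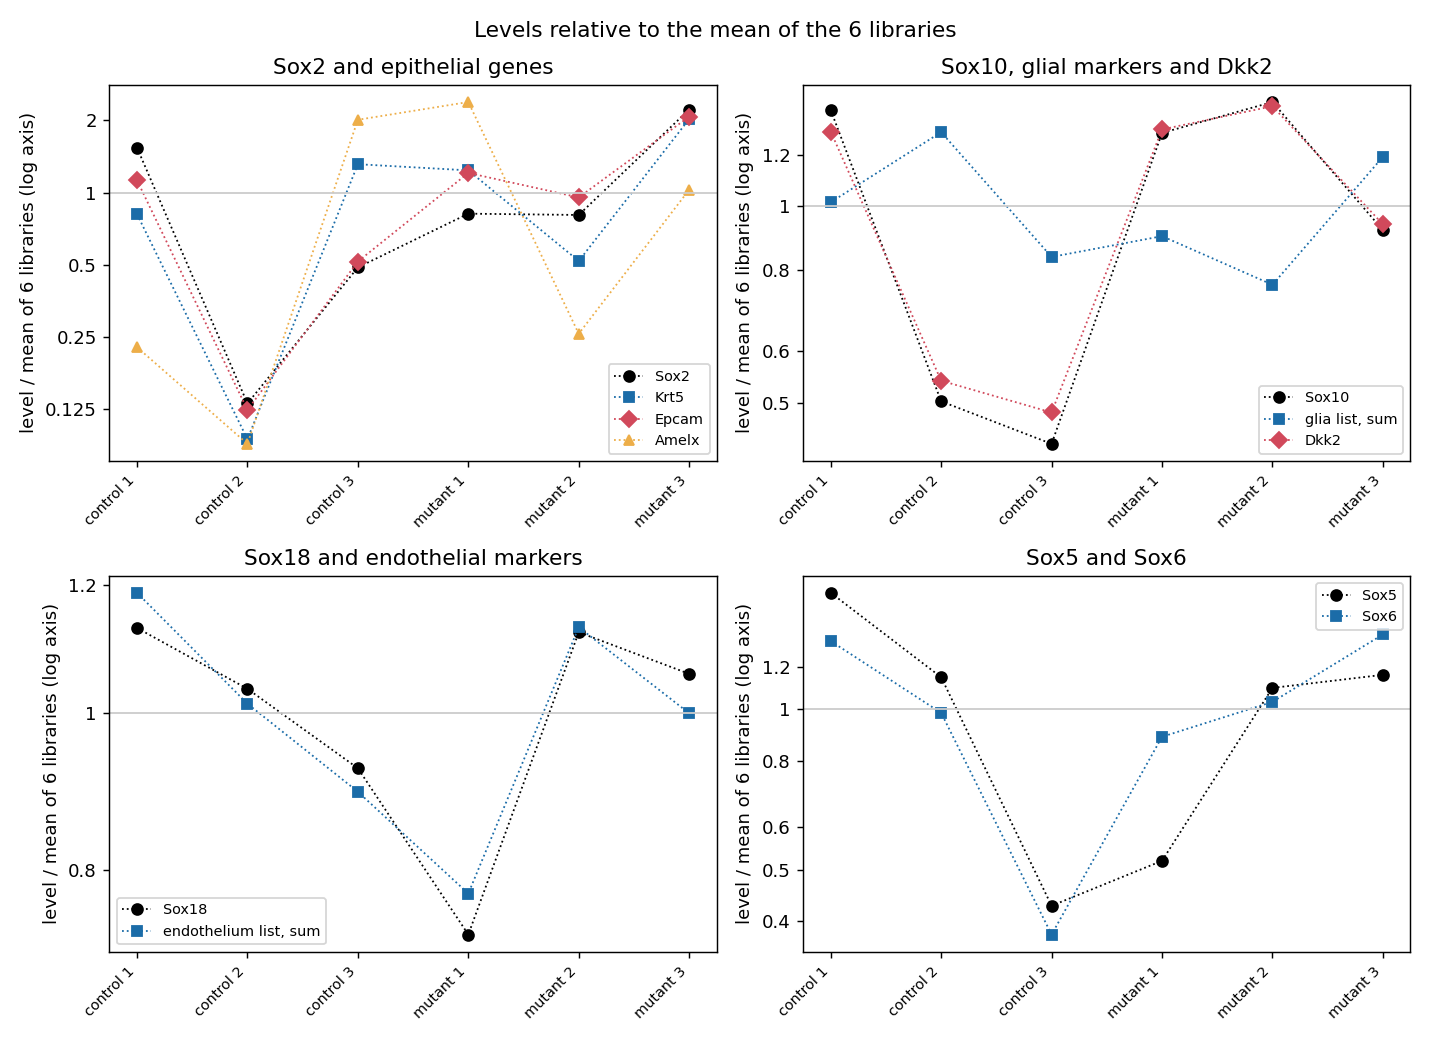
Level in each library divided by the mean of the 6 libraries (y axis, log axis). Panels show Sox2 with epithelial genes, Sox10 with the glial sum and Dkk2, Sox18 with the endothelial sum, and Sox5 with Sox6. Dotted lines only join points of 1 gene. Dkk2 was picked for its likeness to Sox10. Sox2 and Epcam are both lowest in control 2 and highest in mutant 3, Sox18 and the endothelial sum are both lowest in mutant 1, and the glial sum is highest in control 2, where Sox10 is low.

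The SOX genes fell into a more and a less variable set. The highest and lowest libraries differed by at least 1 in log2(RPM + 1) for 5 of 9 tested genes (Sox2 2.84, Sox5 1.67, Sox6 1.56, Sox11 1.54, Sox10 1.45), as they did for 21.4% of all tested genes. Sox4 (0.84), Sox12 (0.72), Sox9 (0.69) and Sox18 (0.61) had smaller spans, but none was below the median span of 0.60 over all tested genes. The more variable 5 had mean levels of 4.79 to 9.35 RPM and the less variable 4 of 29.6 to 261 RPM, so level and spread differed together. The share of 21.4% is over tested genes of all levels. Control 1 was among the 2 highest libraries for 9 of 10 SOX genes and mutant 3 for 7 of 10, against 38.7% and 41.4% of all tested genes. Control 3 was among the 2 lowest for 8 of 10 and mutant 1 for 7 of 10, against 52.0% and 55.4% of all tested genes, so these libraries were often low for genes in general. Counting only the single lowest library, mutant 1, control 3 and control 2 were lowest for 3 of 10 SOX genes each and control 1 for 1, against 34.0%, 31.0%, 14.4% and 3.60% of all tested genes. Control 1 and mutant 3 were each the highest for 4 of 10, against 17.4% and 23.8% of all tested genes.

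**Figure D4:**
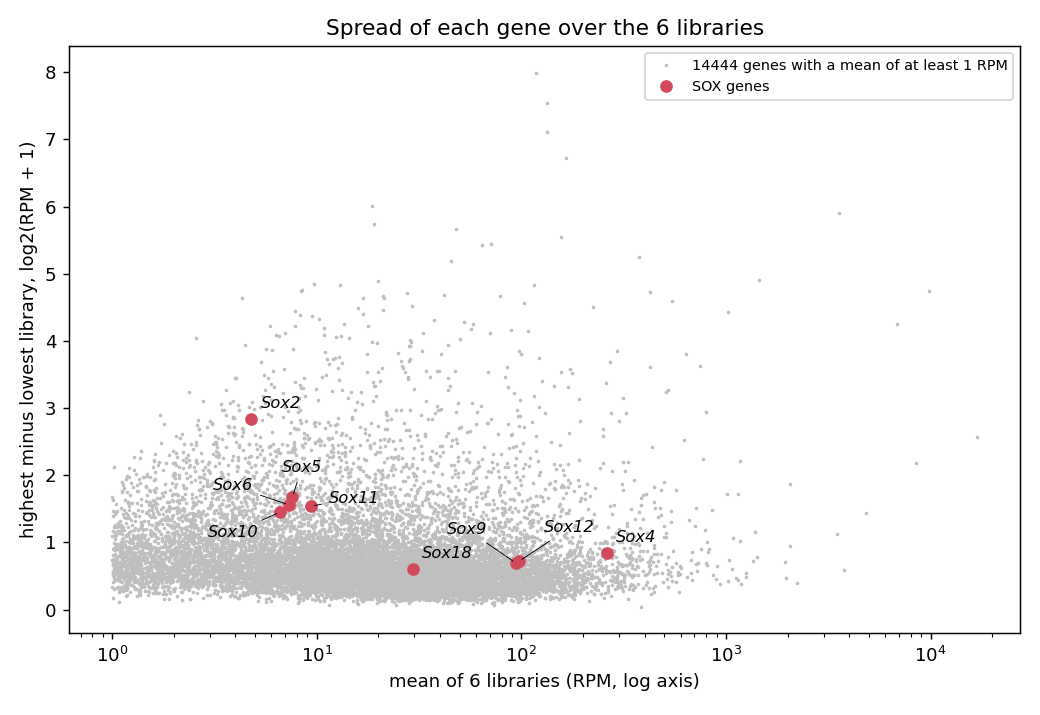
Difference between the highest and lowest library in log2(RPM + 1) (y axis) against the mean level (x axis, RPM, log axis) for the 14444 tested genes in grey and the 9 tested SOX genes in red. Sox2 stands at 2.84, Sox5, Sox6, Sox10 and Sox11 between 1.45 and 1.67, and the other 4 below 0.85.

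Litter was the second labelled factor. In a limma fit with genotype and litter, 0 of 9 SOX genes had an unadjusted p under 0.05 for litter 2 minus litter 1, against 20.9% of all tested genes, and 0 of 9 had an adjusted p under 0.05, against 0.872%. Leaving out 1 library changed the first count. Sox2 had an unadjusted p of 0.00132 (limma, difference 1.16, adjusted p 0.0682) without control 1. Sox10 had 0.0139 (limma, difference -0.89, adjusted p 0.274) without control 2. Many genes were under 0.05 in these fits: 2846 of all tested genes without control 1 and 1742 without control 2. With all 6 libraries 14444 genes were tested. Without mutant 3, litter 2 is control 3 alone, whose spread would be taken from the litter 1 libraries. The differences there were -1.43 for Sox5 and -1.32 for Sox6, given without p-values. For Sox10 the difference with all 6 libraries was -0.65 (SE 0.34, interval -1.47 to 0.18, unadjusted p 0.105, adjusted p 0.33), with means of 7.68 RPM in litter 1 and 4.47 RPM in litter 2. Litter 2 has 1 library per genotype.

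The change between genotypes was more positive in litter 2 than in litter 1 for 9 of 9 SOX genes, as it was for 71.0% of all tested genes. The median difference between litters was 0.77 for the SOX genes and 0.19 for all tested genes. Within litter 1 the Sox6 change was -0.23 and within litter 2 it was 1.56, from control 3 at 2.75 and mutant 3 at 10.1 RPM. For Sox5 it was -0.76 and 1.21. The genotype-by-litter term of limma had an unadjusted p under 0.05 for Sox5 (0.0195) and Sox6 (0.00476), 2 of 9, against 5.06% of all tested genes, and an adjusted p under 0.05 for 0 of 9, against 0%. On the log2(RPM + 1) scale the mean of Sox2 was higher in mutants within both litters (0.40 and 1.81), as was that of Sox10 (0.59 and 0.87). In litter 1 the Sox2 mutants, at 3.91 and 3.86 RPM, lay between the controls, at 7.37 and 0.630 RPM. The litter 1 change of Sox2 thus rests on the low value of control 2. All 9 litter 2 values rest on control 3 and mutant 3 alone.

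**Figure D5:**
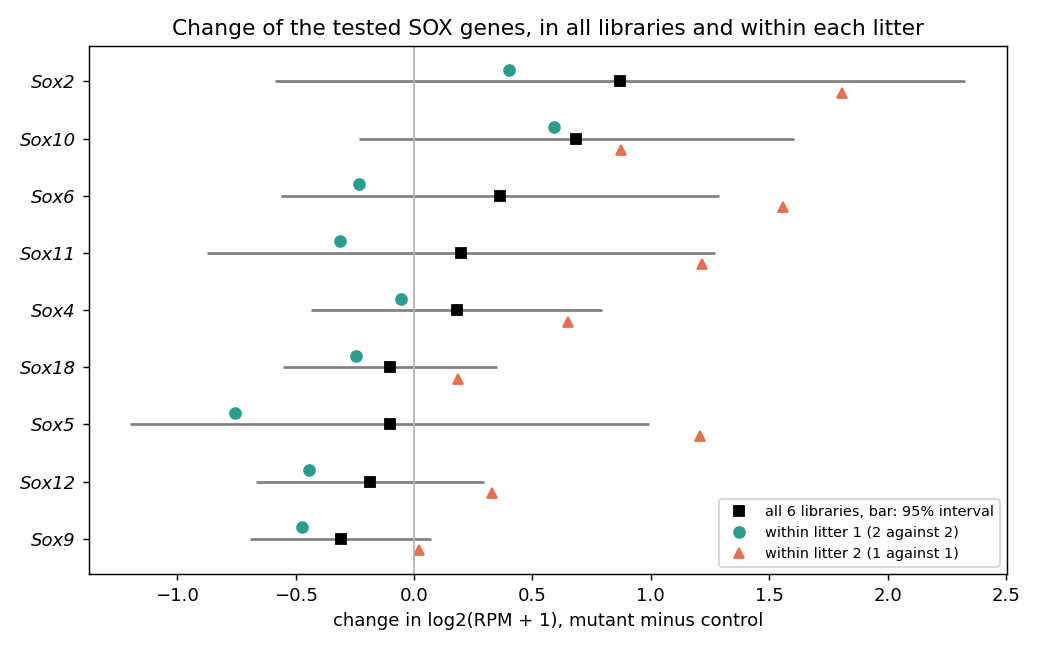
Change in log2(RPM + 1), mutant minus control (x axis), for the 9 tested SOX genes: squares with 95% intervals from all 6 libraries, circles within litter 1, triangles within litter 2. All 9 intervals include 0, and each triangle lies to the right of its circle.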

How the data were processed

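Per the labels' protocols, libraries were made from polyadenylated RNA. TopHat2 and the mm10 build are named in the submitters' processing notes; the counting program and annotation are not given in the sources used here. The authors deposited 1 table of log2 values, titled as normalized RPKM. Raised as powers of 2, 99.98% of the values above the column minimum lay within 0.05 of a whole multiple of 1 step per column shared by all genes, so the values hold no division by gene length. The column minimum was read as 0.9 of 1 read (genes without reads, set to 0), and values were used as RPM, a scale inferred from the step. A level of 3 reads was 0.0987 to 0.126 RPM.

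Levels of log2(RPM + 1) were compared for genes averaging 1 RPM or more, using limma 3.58.1 (R 4.3.3; eBayes with trend, two-sided, Benjamini-Hochberg over all tested genes), checked on simulated data. This scale understates changes of low genes. The design assumed linear values; the deposited log2 values were raised to linear first. Sox8, below that level, was compared by an exact permutation test. Alternatives changed the pseudocount (0.1, 0.5), the filter (none, or an average of 5), the scaling (median-of-ratios, upper-quartile, quantile), or the model (eBayes without trend, voom, a litter block, litter 1 alone, the replicate block, each library left out).

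All members are named, with list genes at an unadjusted p under 0.05 and the first markers of a cell type list. Named too are the 3 tested genes nearest each member spanning at least 1 in log2. Those nearest genes were picked by their likeness over the same 6 libraries, so a shared pattern is not a separate result. Members and lists were chosen with earlier results of these data known. Of the listed symbols, 3 (Adgre1, Cnmd, Snorc) were matched through RefSeq synonyms. Exon lengths, coordinates and sequences are from GENCODE vM21. Some genes of these lists are not reported here.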

Additional observations from a re-analysis of the deposited data

Results flagged for a closer look

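Sox5 and Sox6 were singled out because the change between genotypes differed between litters. The genotype-by-litter term was 1.96 for Sox5 (SE 0.62, unadjusted p 0.0195, adjusted p 0.83) and 1.79 for Sox6 (SE 0.41, unadjusted p 0.00476, adjusted p 0.649, limma with Benjamini-Hochberg in each case). Both litter 1 mutants lay below both litter 1 controls for Sox5, and the litter 2 mutant lay above its control. For Sox6 mutant 2 lay above control 2. Neither passed adjustment, and both rest on the 2 libraries of litter 2. Sox17, a SOXF gene outside the 10, had a term of 1.28 (SE 0.38, unadjusted p 0.0148, adjusted p 0.77 by limma). The litter difference was thus not particular to Sox5 and Sox6.

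Sox9 and Sox12 were singled out because the litter 1 mutants were the lower of that litter, below both of its controls, and in litter 2 the mutant was the higher. The litter 2 change was 0.021 for Sox9, on 87.7 and 89.0 RPM, and 0.33 for Sox12, on 88.1 and 111 RPM. The genotype-by-litter term had an unadjusted p of 0.145 for Sox9 and 0.0635 for Sox12 (limma), so neither difference passed. Sox7, Sox13 and Sox17, outside the 10, had the same order of mutants and controls within each litter. The share of all tested genes with this order is not given here.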

How the results depend on the processing

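The number of genes with an adjusted p under 0.05 (limma, Benjamini-Hochberg), 0 with 152 at an unadjusted p under 0.05, was 0 in every alternative that kept all libraries or litter 1, and 0 to 1 when each library was left out (1 without control 1). The unadjusted count was 344 with no filter, 292 with a litter block, 316 from litter 1 alone and 524 with the replicate block, and 68 to 319 over the leave-one-out fits (319 without control 1, 239 without control 3, 259 without mutant 2, 68 without mutant 1). SOX genes under an unadjusted p of 0.05, 0 in the reported fit, numbered 1 with median-of-ratios scaling and 1 in litter 1 alone (Sox9 in both), and 0 to 2 over the leave-one-out fits: Sox2 and Sox10 without control 1, Sox9 without control 3. The litter count, 3026, ran from 1396 (without control 3; 1742 without control 2) to 4245 (without mutant 1). In litter 1 alone, direction reversed for Sox4 (-0.057), Sox6 (-0.23) and Sox11 (-0.31). Leave-one-out changes ran from 0.0083 to 0.41 for Sox4, -0.58 to 0.26 for Sox5, -0.077 to 0.68 for Sox6, -0.064 to 0.71 for Sox11, -0.34 to 0.0042 for Sox12 and -0.22 to 0.083 for Sox18. Sox2, Sox9 and Sox10 kept their direction in every alternative run. For these shifts the cause was not tested.

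Replicate numbers come from the column names. Deviations of same-numbered libraries correlated, across genes, at -0.03, 0.75 and 0.50, so the numbers were not taken as pairing; with the replicate block 0 SOX genes had an unadjusted p under 0.05. The block is balanced over genotypes, so it leaves each estimate as it was. Depth limits Sox8 and the low Sox2 value of control 2, each resting on 25 reads or fewer.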

Other observations

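The other 9 listed SOX family genes include 4 above 1 RPM: Sox7, Sox13, Sox17 and Sox21, described after their values were seen. Sox21 of the SOXB2 group, an epithelial factor of teeth and hair, was at 4.44, 4.30 and 45.4 RPM in controls and at 44.4, 3.63 and 13.5 RPM in mutants. Its high libraries, control 3 and mutant 1, are those with the most Amelx, and differ from the libraries with the most Sox2, mutant 3 and control 1. The endothelial genes Sox7 and Sox17, of the same SOXF group as Sox18, were at 13.9, 11.8 and 8.76 RPM and at 13.5, 11.2 and 6.78 RPM in controls, and at 7.07, 10.6 and 11.6 RPM and at 7.67, 9.75 and 12.7 RPM in mutants. Both were low in control 3 and mutant 1. None of these 4 genes had an unadjusted p under 0.05 between genotypes (limma). Sox1, Sox3, Sox14 and Sox15 were at 3 reads or fewer in at least 1 library.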
